A study of Mus musculus with 12 samples.

Results

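Integrins are the receptors by which mammary cells hold on to the matrix, and 9 integrin subunit genes together with Cd44 are described here, each chosen by symbol and each found in the table (10 of 21743 genes). An integrin is a pair of 1 alpha and 1 beta subunit, and the pair decides the ligand. In the mammary gland, laminin-binding integrins anchor basal cells and the outer face of the epithelium to the basement membrane, and the pair of Itga6 and Itgb4 forms the core of the hemidesmosome, the junction that ties keratins to laminin. Fibronectin-binding integrins, which recognise the RGD motif of their ligands, are used by fibroblasts and by cells that move through provisional matrix. Cd44 is a surface receptor for hyaluronan, a sugar polymer of the matrix, and is widely used as a marker of basal, mesenchymal and stem-like mammary cells.

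The laminin-binding subunits were Itga3, Itga6 and Itgb4. The fibronectin-binding subunits were Itga5, Itgav, Itgb3 and Itgb6. Itga2 binds collagen with Itgb1, and Itgb1 itself is the shared partner of Itga2, Itga3, Itga5, Itga6 and Itgav, so it was placed in neither group. A count of RNA for 1 subunit does not measure the assembled pair, since each pair needs both proteins at the surface.

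Drop-seq, a droplet method that tags the 3′ ends of the RNA of single cells and counts them by unique molecular identifier (UMI), was applied to 2 Brca1-deficient mice. All groups carried MMTV-Cre, a recombinase under a viral promoter active in mammary epithelium, with Brca1 flox/flox on a mixed C57BL/6 and 129/Sv background, and no wild-type library was compared. The fourth mammary glands (MG1, 2 libraries, 818 cells; MG2, 2 libraries, 2335 cells) and a tumor of the same animal (MT1, 5 libraries, 7690 cells; MT2, 3 libraries, 10314 cells) were enriched for epithelial cells by depleting blood and endothelial cells. The methods describe gland donors in general as young adult females, virgin or pregnant, and do not say whether that covers these tumor-bearing mice. Libraries of 1 tissue of 1 mouse repeat the preparation and not the animal, so the p-values below cover the spread between libraries only.

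Library totals ran from 693333 to 14841414 UMIs, and the smallest library, MG1 replicate 2, held 105 cells. Clustering without the integrin genes and Cd44 gave 11 clusters, of which 3 were treated as stromal (fibroblast-like, endothelial-like, immune-like, 1131 cells in all) and 20026 cells were kept for the library comparisons. Brca1 was at 0 UMIs in both MG1 libraries, a count of 0 that leaves room for at most 1.01 CPM in MG1, and at 2.25, 11.6 and 10.5 counts per 1e6 UMIs (CPM) on average in MG2, MT1 and MT2, which 3′ counts cannot turn into a check of the deleted exons. The tumor cells of MT2 formed clusters 1 and 2, which were given no cell type name. In these clusters together 5 of 11 mesenchymal markers were higher than in other cells (Vim, Fn1, Zeb1, Zeb2 and Snai1), 3 of 11 were lower and 9 of 9 epithelial markers were lower, so the label of a mesenchymal tumor rests on part of its list. Most cells of MT1 lay in the epithelial-like clusters 3 and 4 and the mesenchymal-like cluster 5, with 68 in the hormone-sensing-like, 23 in the secretory-like, 4 in the basal-like and 230 in stromal clusters. A further 14 cells of MG1 and 47 of MG2 lay in tumor clusters, 44 of the latter in cluster 5.

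The start regions of these genes are shown for the member that changed most and for the fibronectin receptor that changed in the opposite direction. Of the 10 genes, 7 had 1 or more windows in the RefSeq promoter table (GRCm38.p6, 250 bases before to 50 bases after a start), 9 windows in all. The letters searched on both strands were CACCTG, an E-box bound by repressors of the Snail and Zeb families, and TGANTCA, the AP-1 motif, and neither contains the other. Itgb6 has 2 start windows, both on the minus strand of chromosome 2, and capitals mark CACCTG.
Itgb6, chr2:60673644-60673943: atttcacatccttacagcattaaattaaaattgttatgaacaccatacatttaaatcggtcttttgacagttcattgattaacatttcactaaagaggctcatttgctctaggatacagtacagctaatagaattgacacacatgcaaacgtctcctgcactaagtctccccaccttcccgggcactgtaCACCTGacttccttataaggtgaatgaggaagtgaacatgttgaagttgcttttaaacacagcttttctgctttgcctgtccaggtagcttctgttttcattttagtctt
Itgb6, chr2:60722554-60722853: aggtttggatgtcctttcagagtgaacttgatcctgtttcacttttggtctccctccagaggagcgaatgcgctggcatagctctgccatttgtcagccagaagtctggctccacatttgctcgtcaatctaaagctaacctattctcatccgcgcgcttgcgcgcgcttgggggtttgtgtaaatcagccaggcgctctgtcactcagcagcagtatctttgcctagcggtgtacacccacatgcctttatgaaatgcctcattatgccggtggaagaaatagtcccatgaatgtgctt
Itga5, chr15:103366742-103367041: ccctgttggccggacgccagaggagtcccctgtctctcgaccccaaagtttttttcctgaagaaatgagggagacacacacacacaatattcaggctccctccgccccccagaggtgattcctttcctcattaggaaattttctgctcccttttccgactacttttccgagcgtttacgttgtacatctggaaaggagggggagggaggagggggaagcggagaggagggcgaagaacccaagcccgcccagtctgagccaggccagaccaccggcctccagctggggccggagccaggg
The first Itgb6 window held 1 CACCTG and 3 CpG dinucleotides, the second held no match and 12 CpG, and the Itga5 window, also on the minus strand, held no match and 13 CpG. Over all 9 windows CACCTG was present in 2 (22.2%), against 20.2% of 32851 windows of the same length. TGANTCA was present in 1 window, of Itga3 (11.1%), against 7.81% of all windows. These shares are a description of the letters in these windows.

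The laminin-binding subunits were compared first, to ask whether the tumors kept the receptors of the basement membrane. Itga6 (chromosome 2, 71745616 to 71858416, plus strand), the alpha subunit of the hemidesmosome, stood at 265 and 214 CPM in the MG1 libraries and at 287 and 261 CPM in those of MG2. The MT1 libraries held 178, 161, 163, 157 and 158 CPM, and the MT2 libraries 6.89 to 7.23 CPM. Neither tumor overlapped its gland, and MT2 lay far below every other library. Itga6 fell by 0.57 on the log2 scale in mouse 1 (SE 0.13, adjusted p 0.0013, edgeR quasi-likelihood test with Benjamini-Hochberg adjustment over all genes, as for every adjusted p below). In mouse 2 it fell by 5.28 (SE 0.16, adjusted p 1.77e-14), and the changes of the 2 mice differed by 4.71 (SE 0.21, adjusted p 1.15e-11). The mouse 1 call rested on MG1 replicate 1, without which the change was -0.28 and not called. In library sums, fewer cells of a type and less RNA per cell cannot be told apart, and the levels by cell class are given below.

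Itgb4 (chromosome 11, 115974709 to 116008412, plus strand), the beta subunit that pairs with Itga6 alone and binds plectin and keratins inside the cell, moved in opposite directions in the mice. It measured 36.2 and 46.7 CPM in MG1 against 54.7, 82.7, 73.9, 65.7 and 58.2 CPM in MT1, so that every MT1 library was above both MG1 libraries. In mouse 2 it measured 25.4 and 30.3 CPM in MG2 against 1.99, 2.07 and 0.865 CPM in MT2, a total of 65 UMIs in that tumor. Itgb4 rose in mouse 1 (log2 fold change 0.77, SE 0.24, adjusted p 0.0109, edgeR) and fell in mouse 2 (-4.06, SE 0.27, adjusted p 2.81e-10, edgeR). The difference between the mice was 4.83 (SE 0.37, adjusted p 6.5e-09, edgeR). The rise in mouse 1 was not called without MG1 replicate 1 (0.65). Of the 114 Itgb4 UMIs of MG1, 19.3% came from the 14 cells of that gland that lay in tumor clusters, and without those cells the change was 0.96.

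Itga3 (chromosome 11, 95044474 to 95076801, minus strand), which pairs with Itgb1 to bind laminins, was the member with similar changes in both mice. It held 32.5 and 44.9 CPM in MG1, 25.6 and 33.6 CPM in MG2, 11.2 to 23.5 CPM in the 5 MT1 libraries and 18.3, 14.0 and 20.8 CPM in MT2. It fell by 0.88 in mouse 1 (SE 0.26, adjusted p 0.00802, edgeR) and by 0.74 in mouse 2 (SE 0.23, adjusted p 0.00736), though the call in mouse 2 was lost without MG2 replicate 2 (-0.32). The difference between the mice was -0.14 with SE 0.35 (adjusted p 0.795, edgeR), which leaves room for a difference of either sign.

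**Figure D1:**
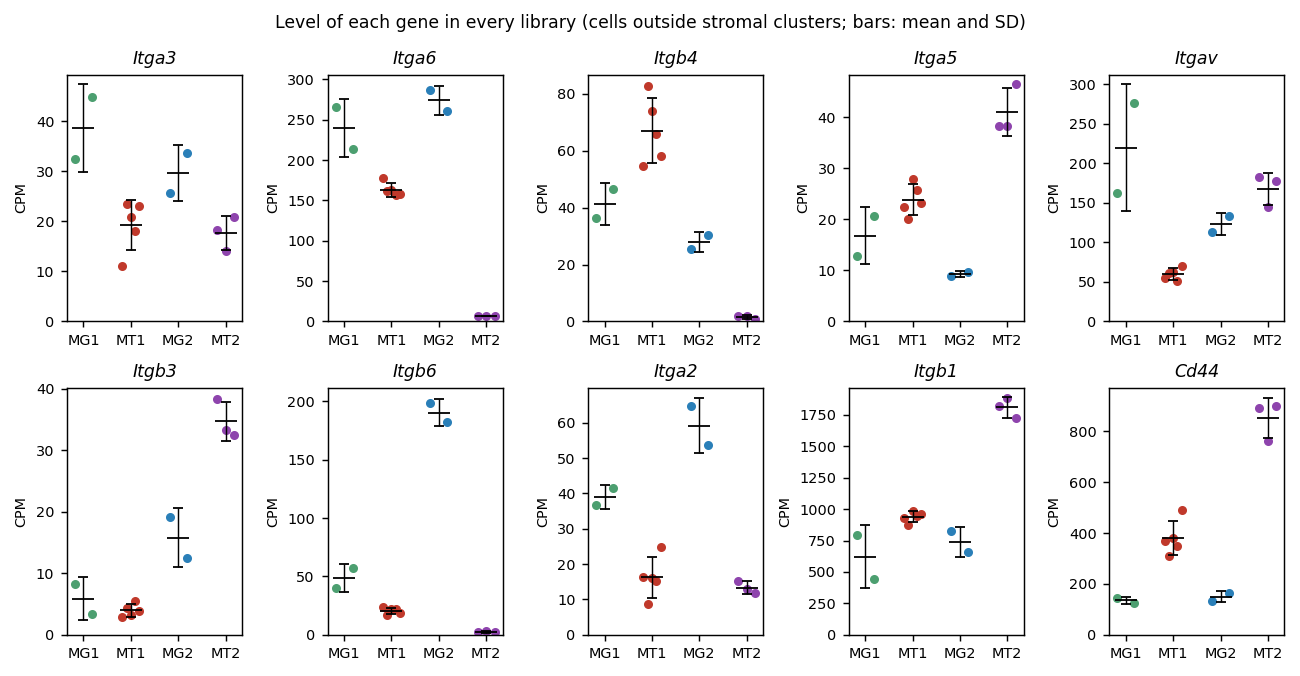
CPM (vertical axis, linear from 0) of the 10 genes in each of the 12 libraries of MG1, MT1, MG2 and MT2, cells of stromal clusters left out. Points are libraries, bars are mean and SD. Itga6, Itgb4 and Itgb6 are lowest in the 3 MT2 libraries, where Itga6 is between 6.89 and 7.23 CPM, while Itgb1, Itgb3, Itga5 and Cd44 are highest there.

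The fibronectin-binding subunits did not move as 1 group. Itga5 (chromosome 15, 103344286 to 103366763, minus strand), the alpha subunit of the main fibronectin receptor, was at 12.9 and 20.7 CPM in MG1 and at 22.3, 20.0, 27.8, 25.8 and 23.3 CPM in MT1. The higher MG1 library overlapped the lowest of MT1. In mouse 2 the separation was wide, from 8.86 and 9.64 CPM in MG2 to 38.2, 38.3 and 46.5 CPM in MT2. Itga5 rose in mouse 2 (log2 fold change 2.15, SE 0.21, adjusted p 4.55e-08, edgeR). In mouse 1 the change was 0.70 (SE 0.25, adjusted p 0.0203), and it was not called with RLE size factors (0.58), DESeq2 (0.59), the 2 groups alone (0.61) or without MG1 replicate 1 (0.35). It also depended on the cells counted. With stromal cells included the mouse 1 change was -1.52. The stromal share of cells was 16.4% and 32.4% in the MG1 libraries and 2.56% to 5.04% in MT1, and fibroblast-like cells had the highest Itga5 level of the classes. With stromal cells included the mouse 2 change was 1.00. The difference between the mice was -1.44 (SE 0.33, adjusted p 0.00191, edgeR). In MG2, 25 of 78 Itga5 UMIs (32.1%) belonged to the 47 cells of that gland found in tumor clusters, and without them the mouse 2 change was 2.63.

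Itgav (chromosome 2, 83724397 to 83806916, plus strand), which pairs with Itgb1, Itgb3, Itgb5, Itgb6 or Itgb8, fell in the first mouse alone. Its level was 163 and 276 CPM in MG1 and between 51.3 and 69.6 CPM in the 5 MT1 libraries, with no overlap, a fall of 1.82 on the log2 scale (SE 0.19, adjusted p 3.08e-07, edgeR). In mouse 2 it was 113 and 133 CPM in MG2 against 182, 145 and 177 CPM in MT2, a log2 fold change of 0.45 that missed the threshold (SE 0.20, adjusted p 0.0503) and passed it in 11 of 20 alternative settings. The changes of the 2 mice differed (-2.27, SE 0.27, adjusted p 2.71e-06, edgeR).

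Itgb3 (chromosome 11, 104608000 to 104670476, plus strand), the beta subunit of the vitronectin receptor and of the platelet fibrinogen receptor, was scarce except in MT2. It was at 8.32 and 3.46 CPM in MG1, 19.2 and 12.5 CPM in MG2, 2.94 to 5.48 CPM in MT1 and 38.4, 33.2 and 32.6 CPM in MT2. MT2 stood above all 9 other libraries, and MT1 overlapped MG1. The mouse 2 change was a rise of 1.14 (SE 0.22, adjusted p 0.000154, edgeR). That of mouse 1 was -0.83 (SE 0.39, adjusted p 0.0779), which missed the threshold and passed it in 5 alternative settings (-0.74 to -1.02). The difference was -1.96 (SE 0.46, adjusted p 0.00215). Without MG1 replicate 1 the difference was -0.83 and not called. Of 3 platelet markers 2 were in the table, and their summed level was at most 5.24 CPM in any library.

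Itgb6 (chromosome 2, 60598292 to 60722643, minus strand), the epithelial partner of Itgav that binds and activates latent TGF-beta, was the member with the largest fall. The glands themselves differed, with 39.9 and 57.0 CPM in MG1 and 198 and 182 CPM in MG2, a gap that was not tested. MT1 held 17.3 to 23.5 CPM and MT2 2.06, 3.14 and 2.12 CPM. Itgb6 fell by 1.14 in mouse 1 (SE 0.21, adjusted p 0.000141, edgeR) and by 6.27 in mouse 2 (SE 0.21, adjusted p 4.55e-14), and the changes differed by 5.13 (SE 0.29, adjusted p 1.61e-10). The first of its start windows printed above holds the 1 CACCTG match of the gene.

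The collagen receptor subunit, the shared beta subunit and Cd44 moved in the same direction in both mice. Itga2 (chromosome 13, 114833081 to 114932100, minus strand) fell from 36.6 and 41.5 CPM in MG1 to between 8.62 and 24.8 CPM in MT1, and from 64.7 and 53.6 CPM in MG2 to 15.3, 12.9 and 11.9 CPM in MT2. Its log2 fold changes were -1.22 (SE 0.27, adjusted p 0.00102, edgeR) and -2.14 (SE 0.23, adjusted p 1.52e-07). The difference of 0.93 between the mice (SE 0.36, adjusted p 0.0425) was lost in 14 of 19 alternative settings.

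Itgb1 (chromosome 8, 128685654 to 128733200, plus strand), the most frequently counted of the 10 genes, was at 798 and 444 CPM in MG1, 827 and 657 CPM in MG2, 873 to 985 CPM in MT1 and 1823, 1882 and 1723 CPM in MT2. All tumor libraries were above their glands, with a wide gap in mouse 2 and a narrow one in mouse 1. It rose in mouse 1 (log2 fold change 0.58, SE 0.19, adjusted p 0.0131, edgeR) and in mouse 2 (1.29, SE 0.20, adjusted p 2.18e-05). The mouse 1 change rested on the low MG1 replicate 2, without which it was 0.25 and not called, and it was 1.20 without MG1 replicate 1. The difference between the mice was -0.71 (SE 0.27, adjusted p 0.0403, edgeR), and it was -0.13 and not called without MG1 replicate 1.

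Cd44 (chromosome 2, 102811141 to 102901665, minus strand) measured 145 and 126 CPM in MG1, 134 and 165 CPM in MG2, 368, 310, 382, 350 and 492 CPM in MT1 and 894, 762 and 902 CPM in MT2. The 4 gland libraries lay together, the MT1 libraries above them and the MT2 libraries above those, with no overlap. Cd44 rose by 1.47 in mouse 1 (SE 0.19, adjusted p 5.71e-06, edgeR) and by 2.51 in mouse 2 (SE 0.20, adjusted p 4.42e-09), and the rise was larger in mouse 2 (difference -1.04, SE 0.26, adjusted p 0.00365). With stromal cells included the rises were 0.82 and 2.27. The gland cells that lay in tumor clusters held 15.9% of the Cd44 UMIs of MG1 and 18.5% of those of MG2.

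**Figure D2:**
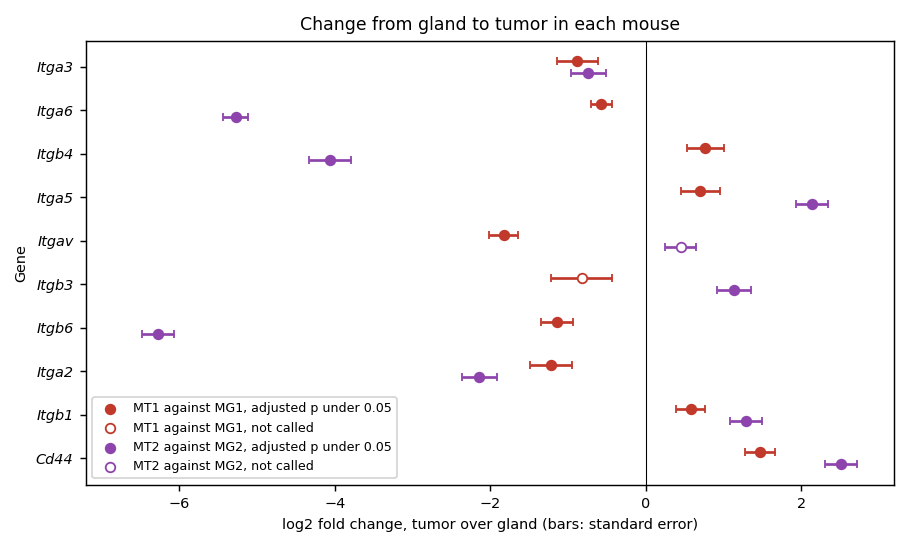
Log2 fold change of tumor over gland (horizontal axis) with its standard error for the 10 genes (vertical axis), MT1 against MG1 and MT2 against MG2. Filled points passed an edgeR adjusted p of 0.05 and open points did not. Itgb4 lies at 0.77 in mouse 1 and at -4.06 in mouse 2, and Itgav at -1.82 and 0.45.

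Counted together, 4 members were higher and 5 lower in MT1 against MG1 (Itgb3 was not called), where 59.3% of 13641 tested genes were called, 32.2% higher and 27.1% lower. In MT2 against MG2, 4 members were higher and 5 lower (Itgav was not called), against 67% of all genes called, 32.7% higher and 34.3% lower. The difference between the mice was called for 9 members, 4 higher in mouse 1 and 5 lower, against 43.4% of all genes, 26.4% higher and 17% lower. In MT1 against MT2, 3 members were higher in MT1 (Itga6, Itgb4 and Itgb6) and 5 lower, against 68.4% of all genes, 35.3% higher and 33.1% lower. The median log2 fold change of the 10 genes was -0.70 in mouse 1 and -0.15 in mouse 2, against 0.11 and -0.05 over all genes. Itga2 and Itga3 were the 2 members that did not pass between the tumors, with differences of 0.29 (SE 0.20, adjusted p 0.208, edgeR) and 0.16 (SE 0.19, adjusted p 0.472). The tumors differed most in Itgb4 (log2 fold change 5.33, SE 0.24), Itga6 (4.53, SE 0.15), Itgb3 (-3.09, SE 0.20) and Itgb6 (3.07, SE 0.19).

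With the animal as the replicate, gland and tumor sums were paired by mouse. EdgeR then called 0% of 14944 genes (2215 at an unadjusted p under 0.05) and no member, the lowest member value being that of Cd44 (log2 fold change 2.04, adjusted p 0.31). DESeq2 with the same pairing called 1337 of 14106 tested genes, among them Cd44 (2.06), Itga6 (-2.89) and Itgb6 (-3.58). With 2 mice, what other animals would show cannot be read from these libraries.

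The balance of both ligand groups was then expressed as the log2 ratio of the summed CPM of Itga3, Itga6 and Itgb4 to that of Itga5, Itgav, Itgb3 and Itgb6, with 1 CPM added to each sum. The counts come from 3′ ends and are not divided by gene length. The highest mean count in the laminin sum was that of Itga6 in MG1, MG2 and MT1 but of Itga3 in MT2 (17.7 CPM, against 7.04 CPM for Itga6), and in the fibronectin sum that of Itgav in MG1, MT1 and MT2 but of Itgb6 in MG2. The ratio was 0.57 and -0.23 in MG1 and -0.01 and -0.05 in MG2. It was 1.20 ± 0.12 (SD, n = 5, range 1.05 to 1.37) in MT1 and -3.18 ± 0.05 (SD, n = 3) in MT2. Thus MT1 lay above all glands and MT2 below them. In MT1 the laminin sum was 250 ± 12.4 CPM against 320 ± 20.0 CPM in MG1, and the fibronectin sum 108 ± 6.73 CPM against 291 ± 94.3 CPM, so that both sums were lower and the fibronectin sum by more. In MT2 the laminin sum was 26.4 ± 3.07 CPM against 331 ± 8.71 CPM in MG2, and the fibronectin sum 246 ± 23.1 CPM against 339 ± 1.08 CPM. Within the fibronectin sum only Itgb6 was lower in MT2, at 2.44 CPM against 190 CPM in MG2. Itga5, Itgav and Itgb3 were higher in MT2, at 41.0, 168 and 34.7 CPM against 9.25, 123 and 15.8 CPM. These ratios are sums over chosen genes and are given with no test, and the MT2 value depends on leaving out the laminin-binding Itga7, with which it was -1.91.

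The levels were next followed into the cell classes, to see which cells of a gland or tumor carried each subunit. Values are CPM of all UMIs of a class in a library, over libraries with at least 20 cells of the class. Because the classes were made from the same cells, these values are a description without a test. Among gland classes, basal-like cells, defined by Krt14, Krt5, Myh11 and other contractile genes, had the highest laminin-binding alpha subunits. Itga6 was at 435 CPM in the 1 MG1 library with enough basal-like cells and at 411 ± 29.5 CPM (SD, n = 2) in MG2. The luminal hormone-sensing-like cells held 270 ± 5.04 CPM (n = 2) in MG1 and 341 ± 0.246 CPM (n = 2) in MG2, and the luminal secretory-like cells 170 ± 6.46 and 230 ± 4.84 CPM. The order basal, hormone-sensing, secretory was thus the same in both glands. Itga3 was at 51.9 CPM in basal-like cells of MG1 and 115 ± 25.1 CPM in those of MG2, against 20.9 to 37.0 CPM on average in the luminal classes. Itga5 was at 43.9 and 31.7 ± 12.7 CPM in basal-like cells and at 4.49 to 18.5 CPM on average in the luminal ones.

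Over the 3 gland libraries with basal-like pools, 7 of 10 members did not overlap between basal-like and luminal secretory-like cells, against 37.2% of genes with a mean of at least 10 CPM. Itga3, Itga5, Itga6, Itgb1 and Cd44 were higher in basal-like cells, and Itgb3 and Itgb6 lower. For Itgb3 this rested on 2 UMIs in basal-like cells of MG1 and 6 in those of MG2. The secretory-like pool of MG1 replicate 2, which had no basal-like pool beside it, was at 4.99 CPM of Itgb3. That is below the basal-like pools (7.98 to 11.4 CPM). Against hormone-sensing-like cells 5 of 10 did not overlap, against 48.9% of genes, a share close to the background. Itgb4 overlapped in both comparisons (23.6 ± 19.2 CPM in basal-like, 31.4 ± 1.68 CPM in secretory-like and 26.7 ± 5.12 CPM in hormone-sensing-like cells, n = 3), on 4 UMIs in basal-like cells of MG1 replicate 1 and 15 in those of MG2. A higher Itgb4 level in basal than in luminal cells was not detectable at this depth.

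Cd44 separated the luminal classes from each other. It was at 205 ± 27.9 CPM (n = 2) in secretory-like cells of MG1 and 155 ± 22.9 CPM in those of MG2, and at 32.3 ± 1.39 and 67.6 ± 8.87 CPM in hormone-sensing-like cells. Basal-like cells held 200 CPM in MG1 and 397 ± 17.0 CPM in MG2. Itgb6 showed the reverse order in MG2, with 369 ± 10.98 CPM in hormone-sensing-like cells, 79.0 ± 0.789 CPM in secretory-like cells and 8.80 ± 3.60 CPM in basal-like cells. In hormone-sensing-like cells of MG1 it was at 66.5 ± 33.4 CPM, so the gap between the glands was largest in this class. With each cell thinned to 1000 UMIs, Itgb6 was seen in 28.9% of 925 hormone-sensing-like cells of MG2 (exact 95% interval 26.0% to 31.9%) and in 4.48% of 268 of MG1 (2.33% to 7.69%), against 0.461% of basal-like cells of MG2. The median depths were 2576, 4414 and 1985 UMIs, and without thinning the shares were 58.4%, 13.1% and 1.38%.

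**Figure D3:**
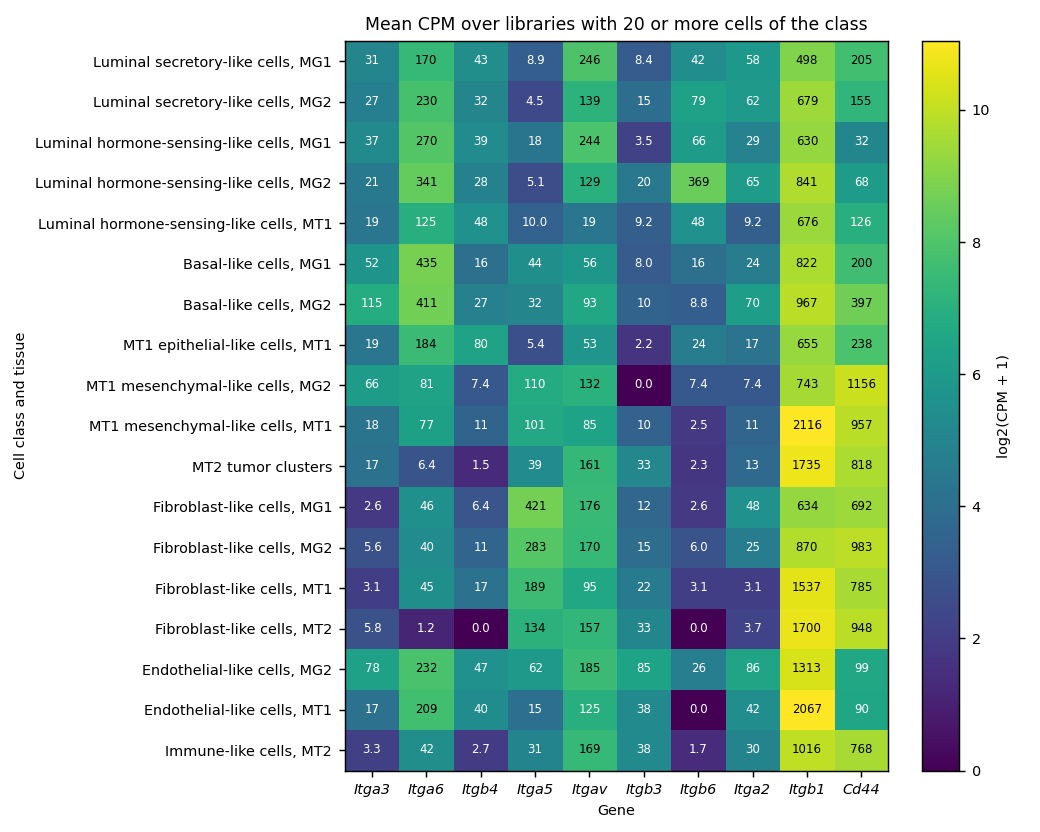
Mean CPM (numbers, with color as log2 of CPM plus 1) of the 10 genes (horizontal axis) in each cell class and tissue (vertical axis), over libraries with at least 20 cells of the class. Itga6 runs from 435 CPM in basal-like cells of MG1 to 6.38 CPM in the tumor clusters of MT2 and 1.22 CPM in fibroblast-like cells of MT2, and Itga5 is highest in fibroblast-like cells.

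In MT1 the epithelial-like and mesenchymal-like cells came from the same 5 libraries, which allowed both to be set side by side in each. Itga5 was at 100.5 ± 11.6 CPM (SD, n = 5) in mesenchymal-like cells and 5.45 ± 2.02 CPM in epithelial-like cells, the widest gap of the 10 genes on the log2 scale (3.98). Cd44 was at 957 ± 131 against 238 ± 29.6 CPM and Itgb1 at 2116 ± 131 against 655 ± 24.3 CPM. In the other direction, Itgb4 was at 10.8 ± 6.19 against 80.4 ± 8.66 CPM, Itgb6 at 2.52 ± 0.443 against 24.5 ± 4.95 CPM and Itga6 at 76.5 ± 14.5 against 184 ± 13.9 CPM. The laminin-binding hemidesmosome pair was therefore lower, and the fibronectin receptor pair of Itga5 and Itgb1 higher, in the mesenchymal-like cells of every MT1 library. Itgav (84.5 ± 21.1 against 53.5 ± 4.36 CPM) and Itgb3 (10.2 ± 3.61 against 2.24 ± 0.538 CPM) also did not overlap. Itga2 and Itga3 did, at 11.3 ± 4.75 against 17.2 ± 6.69 CPM and 18.03 ± 2.33 against 19.5 ± 6.55 CPM. Within each library, however, Itga2 was lower in the mesenchymal-like cells, though narrowly in MT1 replicate 3. Of the 9 members with a mean of at least 10 CPM over both classes (all but Itgb3), 7 did not overlap, against 39.7% of all such genes.

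At 1000 UMIs a cell, Itga5 was seen in 10.2% of 1341 mesenchymal-like cells (exact 95% interval 8.65% to 11.96%) and in 0.614% of 6023 epithelial-like cells (0.433% to 0.846%). The share in hormone-sensing-like cells of MG2, which are not known for this receptor, was 0.216%, so the epithelial-like share stood near that of a class with little Itga5. The median depths were 2327, 2082 and 2576 UMIs, and the shares without thinning 22.4%, 1.38% and 1.84%. Between the epithelial-like clusters, Cd44 was at 185 ± 33.6 CPM in cluster 3, led by Sfrp1 and Igfbp5, and at 319 ± 27.8 CPM in cluster 4, led by Ccl20 and Tnfrsf11b. Itgb1 differed likewise (513 ± 21.8 and 869 ± 33.3 CPM), as did Itgav (35.5 ± 3.48 and 80.8 ± 7.47 CPM) and Itga2 (7.04 ± 4.79 and 32.8 ± 15.7 CPM). Itga6 was close (177 ± 19.9 and 195 ± 8.42 CPM), and Itgb3 went the other way on few UMIs (3.48 ± 0.814 and 0.357 ± 0.527 CPM).

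**Figure D4:**
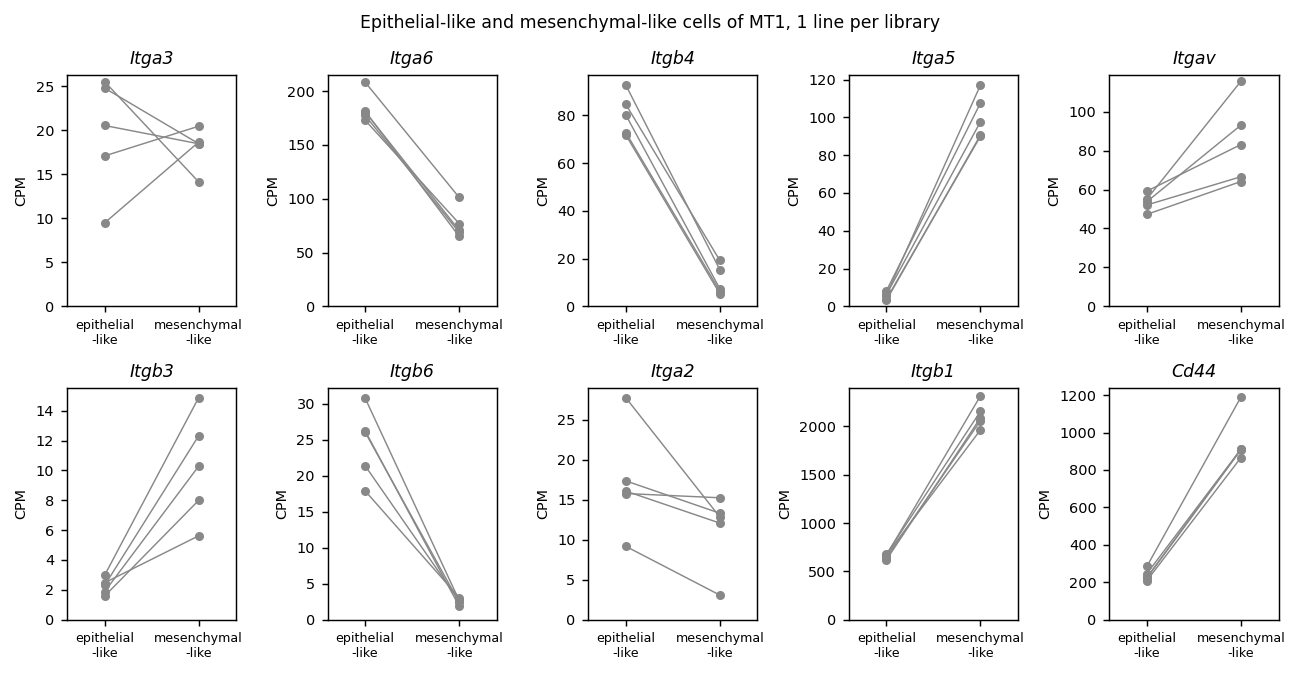
CPM (vertical axis, linear from 0) of the 10 genes in epithelial-like and mesenchymal-like cells of MT1, with 1 line for each of the 5 libraries. Itga5, Itgav, Itgb1, Itgb3 and Cd44 are higher in mesenchymal-like cells in every library, Itga6, Itgb4 and Itgb6 lower, and the lines of Itga3 cross.

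The tumor clusters of MT2 differed from the mesenchymal-like cells of MT1 as well. Itga6 was at 6.38 ± 0.177 CPM (n = 3) against 76.5 ± 14.5 CPM (n = 5), Itgb4 at 1.48 ± 0.620 against 10.8 ± 6.19 CPM, and Itga5 at 39.4 ± 4.98 against 100.5 ± 11.6 CPM. Itgav and Itgb3 were higher in MT2 (161 ± 19.4 against 84.5 ± 21.1 CPM, and 33.4 ± 2.71 against 10.2 ± 3.61 CPM). Cd44 (818 ± 77.6 against 957 ± 131 CPM) and Itga3 (16.8 ± 3.39 against 18.03 ± 2.33 CPM) lay closer together. Nearly all tumor cells of each of these clusters came from 1 tumor, so tumor and class cannot be told apart in these means. The exceptions were 13 cells of MT2 in the mesenchymal-like cluster 5, with 8 UMIs of Itga6 (216 CPM, exact Poisson 95% interval 93.1 to 425, counting error only), and 1 cell of MT1 in cluster 2. MT2 held cluster 1 (led by Grem1 and Ptgs2) and cluster 2 (led by the cell cycle genes Cenpe and Top2a). Itga6 was at 5.14 ± 0.312 and 7.75 ± 0.401 CPM in them, Itga5 at 44.5 ± 5.04 and 33.7 ± 4.16 CPM and Cd44 at 875 ± 85.6 and 752 ± 53.7 CPM. In every MT2 library Itga6 was lower, and Itga5 and Cd44 higher, in cluster 1 than in cluster 2.

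At 1000 UMIs a cell, Itga6 was seen in 0.615% of 9759 cells of the MT2 tumor clusters (exact 95% interval 0.469% to 0.791%), Itgb4 in 0.154% and Itgb6 in 0.225%. In the fibroblast-like cells of MT2, a class not known for hemidesmosomes, each of the 3 was at 0 of 303 cells, which allows a share of up to 0.990%. The median depths were 3143 and 2463 UMIs, and without thinning the tumor shares were 2.25% (1.97% to 2.57%), 0.615% and 0.953%, against 1 of 303 fibroblast-like cells for Itga6 (0.330%, 0.00836% to 1.83%) and 0 for the other two. At 1000 UMIs the tumor shares were thus within what the zeros of this class allow. Without thinning this held for Itgb4 and Itgb6, whereas the Itga6 share lay above the fibroblast-like interval in cells of greater median depth. These values limit cells with a UMI and not cells that express the gene. By comparison, Itga6 was seen in 35.8% of basal-like cells of MG1, 30.9% of those of MG2 and 16.1% of epithelial-like cells of MT1 (62.3%, 55.8% and 33.8% without thinning).

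Among all classes, fibroblast-like cells had the highest Itga5 level in each tissue. It was at 421 ± 246 CPM in MG1 and 283 ± 84.3 CPM in MG2 (n = 2 each), 189 ± 117 CPM in MT1 (n = 4) and 134 ± 55.1 CPM in MT2 (n = 3). The spread in MG1 and MT1 was wide, and the tissues overlapped within 1 SD of their neighbours in this order. The Cd44 level of these cells was between 692 and 983 CPM on average, close to the tumor clusters of MT2 and to the mesenchymal-like cells of MT1. Itgb1 in fibroblast-like cells was at 634 ± 187 and 870 ± 84.9 CPM in the glands and at 1537 ± 225 and 1700 ± 159 CPM in the tumors. Endothelial-like cells, a cluster that also carried 7 of the 10 basal markers, had the highest Itgb3 of the gland classes (84.9 ± 28.2 CPM in MG2, n = 2). Their Itgb1 was at 1313 ± 201 CPM in MG2 and 2067 ± 243 CPM in MT1. The immune-like cells, which came from MT2 (174 of 183 cells), held 768 ± 158 CPM of Cd44 and 38.0 ± 8.58 CPM of Itgb3. Itga6 in fibroblast-like cells of MT2 rested on 1 UMI, against 17 in the smaller number of those of MT1.

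By class, the ratio of laminin-binding to fibronectin-binding subunits ran from 2.01 in basal-like cells of MG1 and 1.99 ± 0.54 (n = 2) in those of MG2 to -5.63 ± 1.44 (n = 3) in fibroblast-like cells of MT2. The gene with the most counts in a sum differed by class, and in fibroblast-like cells of MG1 Itga5 made up 421 of the 611 CPM of the fibronectin sum. The MT1 epithelial-like cells were at 1.72 ± 0.04 (n = 5), a ratio near that of the basal-like cells and above every luminal pool. Their laminin sum was 284 CPM, against 503 and 553 CPM in basal-like cells of MG1 and MG2. In secretory-like cells of these glands it was 244 and 289 CPM. Their fibronectin sum was 85.6 CPM, against 124 and 144 CPM in basal-like and 305 and 238 CPM in secretory-like cells. The MT1 mesenchymal-like cells were at -0.90 ± 0.30 (n = 5) and the MT2 tumor clusters at -3.21 ± 0.05 (n = 3), inside the range of fibroblast-like cells of the glands (-5.03 to -2.30). That placement depends on leaving out Itga7. With Itga7 in the laminin sum, chosen after seeing the data, the MT2 tumor clusters were at -1.92 ± 0.09 (n = 3), above those fibroblast-like cells (-5.03 to -2.22). Luminal classes of the glands were near equality, between -0.42 and 0.28 on average. Fibroblast marker levels were higher in MT2, where the ratio was lowest, and not in MT1, among the cells kept for the library comparison. The summed level of the 8 fibroblast markers was 296 to 790 CPM in gland libraries, 336 to 465 CPM in MT1 and 3506 to 3875 CPM in MT2, with Col1a2 and Pdgfra the markers higher in the MT2 tumor clusters and 5 of 8 lower than in other cells. The sum of the 11 mesenchymal markers was 356 to 500, 1442 to 2616 and 7505 to 7756 CPM in the same order, higher in both tumors although the ratio rose in one and fell in the other, and that of the 9 epithelial markers 11465 to 16604, 7571 to 9724 and 680 to 917 CPM. Their part in the result was not tested.

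**Figure D5:**
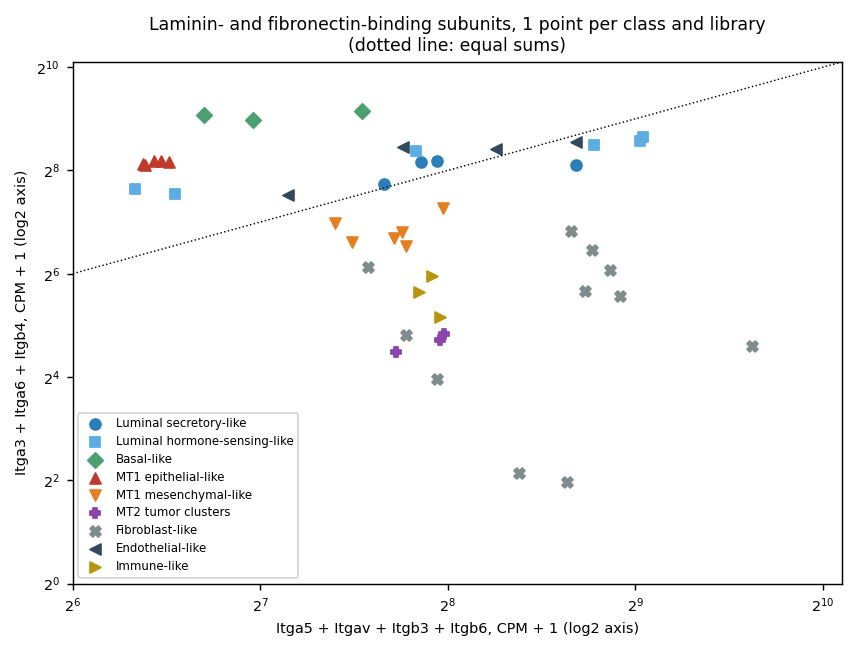
Summed CPM plus 1 of Itga3, Itga6 and Itgb4 (vertical, log2 axis) against that of Itga5, Itgav, Itgb3 and Itgb6 (horizontal, log2 axis), with 1 point for each cell class and library of at least 20 cells. Basal-like and MT1 epithelial-like pools lie above the dotted line of equal sums, MT1 mesenchymal-like pools below it and MT2 tumor pools further below, with a mean log2 ratio of -3.21.

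Across 45 pools of a class in a library, Itga6 and Itgb4 ran together (Pearson r 0.77 on log2 values), as did Itgb4 and Itgb6 (0.67) and Itga6 and Itgb6 (0.65). Cd44 ran against Itgb6 (-0.72), Itgb4 (-0.67) and Itga6 (-0.66), and with Itga5 (0.65). The pools share libraries and differ in depth, so these are descriptions. Among 8627 genes with a mean of at least 10 CPM, those close to Itga6 included F11r (0.91), a tight junction adhesion molecule, and Trf (0.88), transferrin. Those most like Itgb4 were F11r (0.86), Mfsd6 (0.83) and Epcam (0.82), an epithelial adhesion molecule, and those most like Itgb6 were Prss22 (0.91), Tmprss2 (0.84) and Rhpn2 (0.83), Prss22 and Tmprss2 being serine proteases. Itga5 was followed by Nbl1, Rnase4 and Aebp1 (0.88, 0.88 and 0.87), Itgb1 by Tpm4 (0.88), Vegfc and Fscn1, and Cd44 by St3gal2 (0.87), Axl and Htra1. For the others the closest genes were less close, Epha2 for Itga3 (0.78), Crem for Itga2 (0.77), Mast2 for Itgav (0.72) and Hif1a for Itgb3 (0.72).

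The rest of the integrin family was read beside the members. Of 17 other subunits 16 were in the table and 8 passed the filter on low counts, of which none rose and 3 fell in mouse 1, and 3 rose and 3 fell in mouse 2, where 59.3% and 67% of all tested genes were called. Itga1, a collagen-binding subunit, fell by 3.67 in mouse 1 and fell by 5.94 in mouse 2, to 8 UMIs in MT2. Itga8, which binds nephronectin, fell by 1.07 in mouse 1 and fell by 8.02 in mouse 2, to 4 UMIs in MT2. Itgb8, another partner of Itgav, fell by 4.87 in mouse 2, and its rise of 0.42 in mouse 1 was not called. Itga7, a laminin-binding subunit that pairs with Itgb1 and is known from muscle, fell by 1.71 in mouse 1 and stood apart in MT2, at 38.9 ± 6.46 CPM against 3.43 ± 0.794 CPM in MG2 (log2 fold change 3.49, SE 0.27, adjusted p 2.92e-09, edgeR). This value was chosen after it was seen, as was that of Itgb5, a partner of Itgav that rose by 1.10 in mouse 2 (adjusted p 5.62e-05, edgeR). Itga7 is outside the laminin sum above and exceeds that sum in MT2. With Itga7 added, an alternative chosen after seeing the data, the laminin sum of MT2 was 65.2 ± 9.53 CPM and the log2 ratio -1.91 ± 0.09 (SD, n = 3) in place of -3.18, still below the glands, while that of MT1 was 1.20 ± 0.12 (n = 5).

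Among the ligands, 10 of 11 laminin chains were tested, of which 3 rose and 5 fell in mouse 1, and 4 rose and 6 fell in mouse 2, against 59.3% and 67% of all tested genes called. Lama3, the alpha chain of the laminin of hemidesmosomes, was at 23.2 ± 8.38 CPM in MG1, 16.5 ± 4.07 CPM in MG2, 26.2 ± 5.13 CPM in MT1 and 1.75 ± 0.327 CPM in MT2, a fall of 3.22 in mouse 2 (SE 0.27, adjusted p 8.96e-09, edgeR) with no change called in mouse 1 (-0.01, SE 0.25). Lama4, the vascular and mesenchymal alpha chain, rose by 1.83 in mouse 1 and fell by 1.21 in mouse 2. Lama1 was at 14 and 27 UMIs in MG1 and MG2 and at 0 in both tumors, at least 28.6-fold and 46.3-fold lower against 3 counts over the tumor. Lama2 fell in both mice, on 20 and 5 gland UMIs.

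Of 14 RGD ligands 12 were tested, of which 3 rose and 3 fell in mouse 1, and 7 rose and 4 fell in mouse 2. The called share was below the 59.3% of all genes in mouse 1 and above the 67% in mouse 2. Fn1, fibronectin itself and one of the mesenchymal markers, was at 95.9 ± 8.55 CPM in MG1, 68.9 ± 9.67 CPM in MG2, 130 ± 22.0 CPM in MT1 and 2289 ± 154 CPM in MT2. It rose by 5.05 in mouse 2 (SE 0.23, adjusted p 1.73e-12, edgeR), and its mouse 1 change of 0.43 was not called (adjusted p 0.0622). Tnc, tenascin C, rose by 1.66 in mouse 1 and 3.13 in mouse 2, Ltbp1, which tethers latent TGF-beta to the matrix, by 1.36 and 2.72, and Fbn1, fibrillin, by 4.70 in mouse 2. Npnt, nephronectin, fell by 5.15 in mouse 2. Tgfb1, whose latent form is the ligand of Itgb6, fell by 2.22 in mouse 1 and rose by 0.58 in mouse 2.

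Inside the cell, the 4 partners of the hemidesmosome went separate ways, with 3 called in mouse 1 and 2 in mouse 2 (background 59.3% and 67%). Col17a1, its collagen, fell in both mice (log2 fold changes -3.04 and -3.31), Dst, which links it to keratins, fell by 2.62 in mouse 1 and by 0.70 in mouse 2, and Plec, plectin, was called in neither (0.08 and 0.15). Cd151, a tetraspanin that binds laminin receptors, rose by 0.57 in mouse 1 (adjusted p 0.0189, edgeR) and was not called in mouse 2. In mouse 1 the rise of Itgb4 thus stood beside lower Col17a1 and Dst. Of 20 adhesome genes, which tie integrins to actin, 18 were tested, with 8 higher and 5 lower in mouse 1, and 7 higher and 5 lower in mouse 2, close to the 67% of all genes called there and above the 59.3% in mouse 1. Fermt1, the epithelial kindlin that activates beta subunits, was at 46.8 ± 6.18 CPM in MT1 and fell by 7.22 in mouse 2, from 472 UMIs in MG2 to 14 in MT2. Ilk, integrin-linked kinase, rose by 2.14 in mouse 1. Tns1, tensin 1, fell by 2.07 in mouse 1, and Tln2, a talin, fell by 2.83 in mouse 2. Parvb, a partner of Ilk, was at 0 UMIs in MG1 and 124 in MT1, at least 6.75-fold higher, and rose by 4.14 in mouse 2.

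Of 11 genes of hyaluronan metabolism and Cd44 partners 10 were tested, with 3 higher and 4 lower in mouse 1, and 5 higher and 3 lower in mouse 2, beside 59.3% and 67% of all genes. Msn, moesin, which links Cd44 to actin, rose by 2.13 in mouse 1 and 2.23 in mouse 2. Hmmr, a hyaluronan receptor that is also a spindle protein of dividing cells, rose by 4.84 and 3.58. Has1, a hyaluronan synthase, fell by 5.24 in mouse 1, where the MG1 libraries spread widely (16.5 ± 13.3 CPM), and Hyal1, a hyaluronidase, fell by 2.56 in mouse 2.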

How the data were processed

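Drop-seq counts of 12 libraries were analysed. The authors aligned reads with STAR to GRCm38.p6, and what they deposited is 1 table of UMI counts, not normalized, for 21743 genes in 21157 cells, each with at least 800 detected genes. Columns were assigned to libraries by the library title in each name, with 0 left over, and groups were taken from the labels. Strand and the handling of paralogs are not given in the sources used here. Libraries shared 0 to 7 barcodes, and none agreed within sampling noise with another of its group.

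The members, marker lists and gene lists were chosen with earlier results of these data known. Clusters were made in python 3.11.15 (scanpy 1.11.5, leidenalg 0.10.2) from 3000 variable genes without integrins and Cd44 (11 removed), 30 components, 20 neighbours and resolution 0.6. A marker counted for a cluster where it reached a log2 fold of 1 (pseudocount 10 CPM). Clusters were called "X-like" after the list with the highest share of counted markers, given 3 or more and a minimum share of the list. Where no list had that share, 3 or more epithelial, or else mesenchymal, markers gave the name. Clusters 3, 4 and 5 were named in this second way, cluster 5 on 5 of 11 mesenchymal markers. Tumor clusters had 90% or more tumor cells. Names were rebuilt here and may differ from those of the study. Doublets were not removed: 51 cells (0.241%) were marked, which is too low a share for the caller to have worked.

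UMIs of cells outside stromal clusters were summed per library. The sums were compared in R 4.3.3 by the quasi-likelihood test of edgeR 4.0.16 (TMM, filterByExpr, Benjamini-Hochberg, threshold 0.05) in 1 fit of 4 groups. Library CPM use TMM-scaled totals, and class CPM and folds against 0 plain totals. Standard errors are the absolute log2 fold change over the square root of F. The pairing of gland and tumor comes from the mouse given in the labels, and was fitted on 4 sums with the mouse as block. With 1 block for each of 2 mice, no correlation check was possible. In simulated data of 12956 genes, 98 were changed by 1 log2 unit and 97 by 2. Of these, 52% and 80.4% were recovered for MT1 against MG1, and 65.3% and 93.8% for MT2 against MG2. A far larger share of genes was called in the real comparisons, so these recovery rates may not carry over to them. Shares carry exact Clopper-Pearson intervals of 95% after thinning to 1000 UMIs (0 cells left out), and a count of 0 is given a limit of 3 counts. Both cover counting error only. From each gene list the 3 genes with the largest change among those called in each mouse were named, with Fn1, and for each member the 3 genes with the highest r. 1 of these genes is not reported here. Alternatives were RLE size factors, DESeq2 1.42.0, no filter, all cells, no gland cells in tumor clusters, no top 5% of doublet scores, resolution 1, the groups of the contrast alone, each library left out, a pseudocount of 5 CPM, alpha subunits alone, Itga7 in the laminin sum (added after seeing the data) and thinning to 500 UMIs or not at all.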

Additional observations from a re-analysis of the deposited data

Results flagged for a closer look

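The change from gland to tumor differed between the mice for 9 of the 10 genes, against 43.4% of all 13641 tested genes. This is the interaction term of the edgeR fit on 12 libraries (mouse 1 minus mouse 2, log2 scale). The differences were 5.13 for Itgb6, 4.83 for Itgb4 and 4.71 for Itga6. They were 0.93 for Itga2, -0.71 for Itgb1, -1.04 for Cd44, -1.44 for Itga5, -1.96 for Itgb3 and -2.27 for Itgav. With 1 animal on each side, a difference between tumors and one between mice or libraries cannot be told apart. The Itga2, Itgb1 and Itgb3 differences were each lost on leaving out single libraries. In MT1, the only group of 4 or more libraries, the gap of the highest or lowest library to its neighbour over the range was below Dixon's 95% critical value for each of the 10 genes. It came closest for Itga6 (0.708, MT1 replicate 1 at 178 CPM), and it was 0.553 for Itga3, where MT1 replicate 1 was lowest at 11.2 CPM.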

How the results depend on the processing

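Between the tumors all 10 genes kept their direction and call in every alternative run (200 values). Of 200 values for mouse 1, 187 kept direction and call, 7 lost the call, 5 gained it and 1 reversed, the -1.52 of Itga5 with all cells. Of 200 values for mouse 2, 188 kept it, 11 gained it (all Itgav, 0.43 to 0.78) and 1 lost it. Of 190 differences between the mice 23 lost the call, 14 of Itga2 and 8 of Itgb1. The median over all genes shifted with RLE size factors, by -0.11 in mouse 1 and -0.15 for the difference.

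The laminin to fibronectin ratio of MT2 over MG2 was -3.15 and became -2.97 with a pseudocount of 5 CPM, -3.05 with all cells, -4.23 with alpha subunits alone and -1.89 with Itga7 in the laminin sum (chosen after seeing the data). That of MT1 over MT2 was 4.37 and became 4.17, 4.27, 4.15 and 3.11. That of MT1 over MG1 was 1.02, and leaving out single libraries gave 0.62 (without MG1 replicate 2) to 1.42 (without MG1 replicate 1). With the mouse as replicate block edgeR called 0 genes, also without the block. DESeq2 with the block called 1337 of 14106 tested genes, adding calls for Itga6, Itgb6 and Cd44 and for no other member. Of 160 class levels 152 moved by less than the spread between libraries at resolution 1. The MG1 libraries, with 713 and 105 cells, limit the mouse 1 calls.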
